A study of Mus musculus with 11 samples.

Results

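Neurons, astrocytes and oligodendrocytes are the cells that surround microglia in the brain, and their transcripts were followed here in microglia sorted from aged mouse cerebrum. The genes were 35 markers listed by symbol for the 3 cell classes, 13 for neurons, 12 for astrocytes and 10 for oligodendrocytes, and a gene was kept where the deposited table of 14739 genes holds a row for it. In all, 25 were kept, 10 for neurons, 10 for astrocytes and 5 for oligodendrocytes. Nefm, Tubb3, Map2, Aqp4, Slc4a4, Mog, Cldn11, Mal, Sox10 and Ermn had no row and were not analysed here.

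The 11 libraries were RNA-seq libraries of Tmem119-positive cells of C57BL/6 mice, where Tmem119 is a surface protein of microglia. They formed 4 genotype groups. Csf1r_het (Csf1r+/-, 3 libraries) came from mice of 20, 24 and 21 months in replicates 1, 2 and 3, and Csf2_het (Csf2+/-, 3 libraries) from mice of 21 months. Dhet (Csf1r+/-; Csf2+/-, 2 libraries) came from mice of 21 and 24 months in replicates 1 and 2, and WT (wild type, 3 libraries) from mice of 21 months. Csf2 encodes GM-CSF, a myeloid growth factor, and Csf1r a receptor on which microglia depend. How the deleted alleles were made, whether mice were pooled and their sex are not given in the sources used here, and sex is read from transcripts below. Ages differ between the libraries within Csf1r_het and within Dhet, so those libraries came from different mice. For Csf2_het and WT, no label says that the libraries are separate mice. The p-values measure the spread between libraries, which in Csf2_het and WT may be technical.

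Neurons signal through synapses and are built around a cytoskeleton of microtubules and neurofilaments. Astrocytes clear glutamate and ions, couple through gap junctions and convert glutamate to glutamine, and oligodendrocytes wrap axons in myelin. None of these cells is known to carry Tmem119 at its surface, and several of the marker genes are also transcribed in other cells. In bulk RNA, fewer cells of a type and less RNA per cell cannot be told apart.

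Values are gene counts as the authors scaled them to a common depth, called normalized counts below, and 1 read was worth 0.479 to 1.48 of them. The libraries held 21037819 to 53081638 reads. Csf1r, whose copy number defines groups, had 17017, 40567 and 24022 normalized counts in Csf1r_het, 53873, 58211 and 66762 in Csf2_het, with 40151 and 30254 in Dhet and 93319, 41261 and 63538 in WT. Csf1r_het replicate 2 stood apart in its haemoglobin share (58.8% of counts, against 16.1% to 40.2% elsewhere) and in the share of genes at 0 (15.6%). Dhet replicate 2 had 717 normalized counts of the Y-linked Ddx3y, against at most 16.3 in the other libraries. It had 4.02 of Xist, a transcript of the inactive X chromosome, against 3011 to 8151 in the others. By these 2 genes Dhet replicate 2 was male and the other libraries female. In that library sex, age and genotype cannot be told apart, and the Dhet and interaction results include it. Csf1r_het replicate 2 and Dhet replicate 2 are also the libraries of the 24-month mice, and results are given below without them where that changes a call. The 12 microglia markers, among them Tmem119 and P2ry12, were above 0 in every library and summed to 0.331% to 2.47% of counts. Tmem119 itself ran from 5432 normalized counts in WT replicate 2 to 31939 in Csf2_het replicate 2.

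Promoters are shown for 4 genes, as the 250 bases before the RefSeq start on GRCm38.p6 in the gene's own 5′ to 3′ direction. Mt3 is the gene whose difference passed the test below, Mt2 is its metallothionein neighbour, Mobp is the oligodendrocyte gene with the lowest unadjusted p against WT, and Syn1 is a neuron gene with a match to an element of REST, a repressor of neuron genes in other cells. In Mt3 (chr8:94152357-94152606, forward strand) and Mt2 (chr8:94172368-94172617, forward strand) capitals mark the core of the metal response element, TGCACNC or TGCGCNC on either strand. In Mobp (chr9:120149492-120149741, forward strand) they mark ACAAAG, a site bound by SOX factors, on either strand. In Syn1 (chrX:20920919-20921168, reverse strand) they mark TTCAGCACC, the left part of that element, RE1.
Mt3: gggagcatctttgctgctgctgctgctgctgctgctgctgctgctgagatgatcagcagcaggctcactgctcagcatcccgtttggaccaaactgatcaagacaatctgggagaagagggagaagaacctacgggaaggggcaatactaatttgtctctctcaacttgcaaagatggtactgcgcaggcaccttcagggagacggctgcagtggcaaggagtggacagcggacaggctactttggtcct
Mt2: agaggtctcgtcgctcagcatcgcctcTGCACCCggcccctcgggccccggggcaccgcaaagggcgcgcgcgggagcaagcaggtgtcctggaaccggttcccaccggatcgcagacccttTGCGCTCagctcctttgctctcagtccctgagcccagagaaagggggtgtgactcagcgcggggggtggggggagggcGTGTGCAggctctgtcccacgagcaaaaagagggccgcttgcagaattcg
Mobp: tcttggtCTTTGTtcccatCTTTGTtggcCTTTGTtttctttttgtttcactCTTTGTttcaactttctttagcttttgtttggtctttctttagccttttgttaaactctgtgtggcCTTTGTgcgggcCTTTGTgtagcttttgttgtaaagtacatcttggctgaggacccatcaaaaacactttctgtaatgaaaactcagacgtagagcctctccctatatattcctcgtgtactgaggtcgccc
Syn1: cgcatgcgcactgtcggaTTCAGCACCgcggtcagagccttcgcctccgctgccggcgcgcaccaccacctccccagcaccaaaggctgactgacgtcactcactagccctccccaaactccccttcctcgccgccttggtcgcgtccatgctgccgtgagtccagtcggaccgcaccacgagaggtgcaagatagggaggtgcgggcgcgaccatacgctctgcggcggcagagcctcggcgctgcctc
The metal response core had 0 matches in Mt3 and 3 in Mt2, and 21.5% of 32536 distinct promoters of this length held it. It had 1 match in the other metallothionein neighbour, Mt1 (not shown), and 2 in Syn1, which are not in capitals. Mobp held 6 matches to ACAAAG, a site found in 16.5% of promoters, and was the 1 promoter of the 32536 with 6 or more. ACAAAG also occurred in the oligodendrocyte genes Mag and Cnp and in the neuron genes Syt1 and Stmn3. The RE1 part in Syn1 occurred in 0.301% of promoters. It was absent from Syt1, Stmn3, Nrgn and Olfm1, the other neuron genes with a promoter at hand. The promoters and motifs were chosen after the values were seen, and a match is a description of letters. RefSeq promoters were at hand for 16 of the 25 genes.

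All 25 genes were above 0 in all 11 libraries, with as few as 2 reads (Syn1 in WT replicate 3), and all 25 passed the filter of a mean of at least 10 normalized counts. The neuron genes summed to 0.00406% to 0.0240% of the counts of a library, the astrocyte genes to 0.0312% to 0.183% and the oligodendrocyte genes to 0.00746% to 0.0297%. Per kilobase of exon, the highest mean levels over the 11 libraries were those of Clu (5228 normalized counts per kb), Mt3 (4450), Glul (1706) and Aldoc (1093) among astrocyte genes. Among oligodendrocyte genes they were those of Mbp (384), Cnp (374), Olig1 (83.8) and Mobp (65.4), and among neuron genes those of Olfm1 (254), Stmn3 (223), Nrgn (186) and Snap25 (91.8). Syt1 (16.8), Stmn2 (18.6), Syn1 (19.1) and Gja1 (21.1) were the lowest of the 25.

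**Figure D1:**
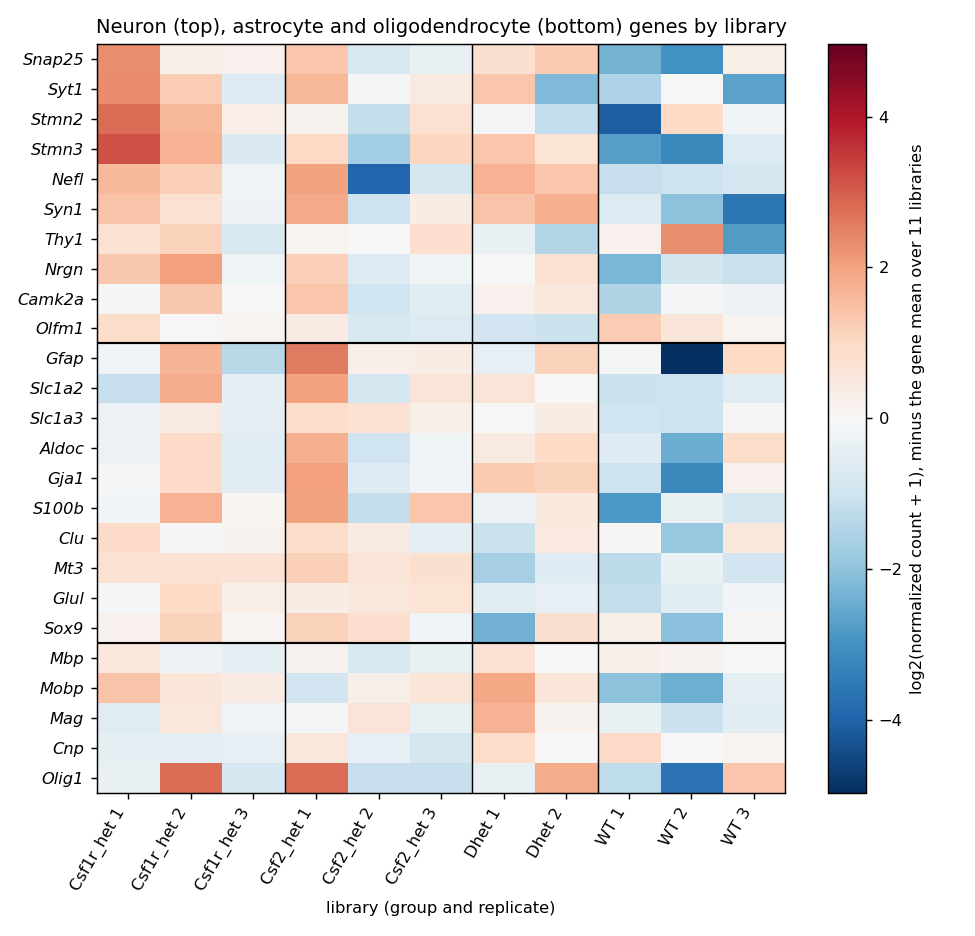
Level of each of the 25 genes in each library, as log2(normalized count + 1) minus the mean of the gene over the 11 libraries, with neuron genes on top, astrocyte genes in the middle and oligodendrocyte genes below. Columns are the Csf1r_het, Csf2_het, Dhet and WT libraries. Csf1r_het replicate 1 is high in neuron genes, Csf2_het replicate 1 in astrocyte genes and WT replicate 2 is low in astrocyte genes.

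The mean log2(normalized count + 1) of the 10 neuron genes averaged 7.98 ± 0.96 in Csf1r_het, 7.15 ± 1.11 in Csf2_het, 7.42 ± 0.36 in Dhet (n = 2) and 6.03 ± 0.43 in WT (SD, n = 3 unless given). That of the 10 astrocyte genes averaged 10.70 ± 0.67 in Csf1r_het, 11.02 ± 0.79 in Csf2_het, 10.44 ± 0.59 in Dhet and 9.55 ± 0.91 in WT. That of the 5 oligodendrocyte genes averaged 9.01 ± 0.47 in Csf1r_het, 8.79 ± 0.50 in Csf2_het, 9.61 ± 0.32 in Dhet and 8.26 ± 0.75 in WT. In each class the WT mean of these log2 levels was the lowest of the 4. Summed counts of the oligodendrocyte genes, which weight the abundant Mbp and Cnp, averaged 5123 in Csf1r_het, 4545 in Csf2_het, 7392 in Dhet and 5451 in WT, so there WT was not the lowest. Summed counts of the neuron genes averaged 4183 in Csf1r_het, 2402 in Csf2_het, 2611 in Dhet and 2133 in WT. In that sum Csf2_het replicates 2 and 3, at 1161 and 1850, lay below WT replicates 1 and 2, at 2318 and 2279. The libraries also overlapped in several comparisons of the log2 levels: WT replicate 3 held 10.46 for astrocyte genes, above Csf1r_het replicates 1 and 3, and WT replicate 2 held 6.49 for neuron genes, above the 6.01 of Csf2_het replicate 2. No p is given for these means, because the genes were listed with results of these libraries known.

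**Figure D2:**
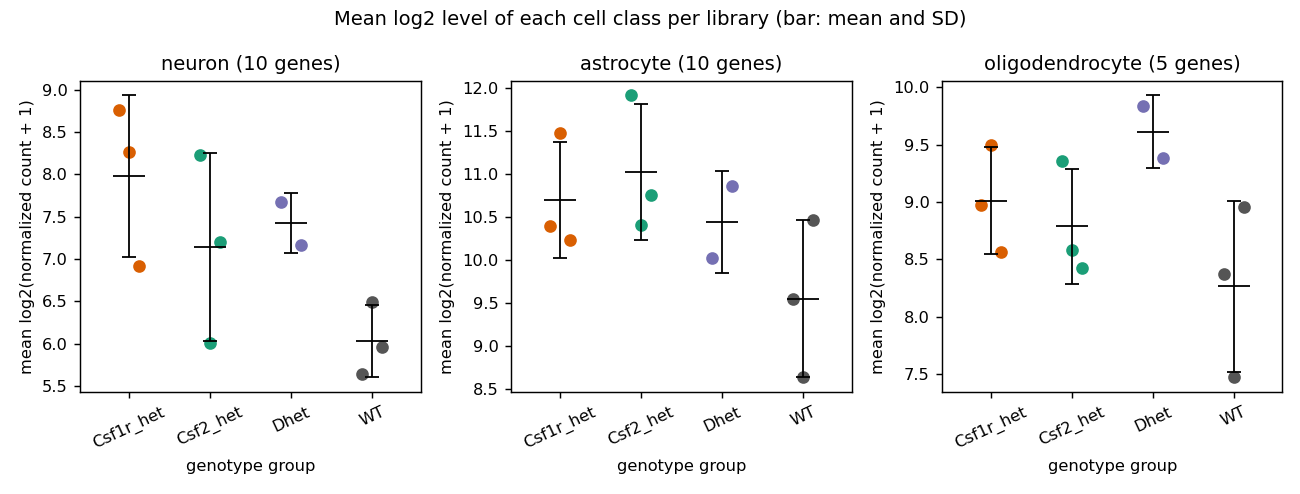
Mean log2(normalized count + 1) of the genes of each class in each library (points), with group mean and SD (bars), for Csf1r_het, Csf2_het, Dhet and WT. Neuron genes reach 8.77 in Csf1r_het replicate 1, against 5.64 to 6.49 in WT.

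Over the whole table, each heterozygous group was compared with WT by limma, with p-values adjusted over 13223 genes. The 3 comparisons share the WT libraries, so their results are not independent of each other. In Csf1r_het, 1 of the 25 genes passed (1.32% of all genes tested did), and 22 of 25 had a positive log2 fold change, with a median of 1.37 against -0.12 over all genes tested. In Csf2_het, 1 of 25 passed (3.65% of all genes), and 22 of 25 were positive, with a median of 1.28 against -0.02. In Dhet, 0 of 25 passed (0.529% of all genes), and 21 of 25 were positive, with a median of 1.18 against 0.02. At an unadjusted p under 0.05, in either direction, limma gave 9 of 25 in Csf1r_het (16.2% of all genes), 9 in Csf2_het (17.3%) and 8 in Dhet (10.1%). In Dhet, at an adjusted p under 0.05, edgeR called 0 of the 25 and DESeq2 called Olfm1 and Mobp. Over all genes there, edgeR called 26 and DESeq2 357, against 70 with limma. The gene that passed in Csf1r_het and in Csf2_het was Mt3 in both.

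Separation of the libraries was also counted without a model. In Csf1r_het, 7 of 25 genes had all libraries above all WT libraries, as did 8.61% of all genes tested, and 1 had all below (12.8% of all genes). In Csf2_het, 4 of 25 lay above (11% of all genes) and 0 below (14.3%). In Dhet, with 2 libraries, 11 of 25 lay above (13.5% of all genes) and 1 below (12.6%).

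**Figure D3:**
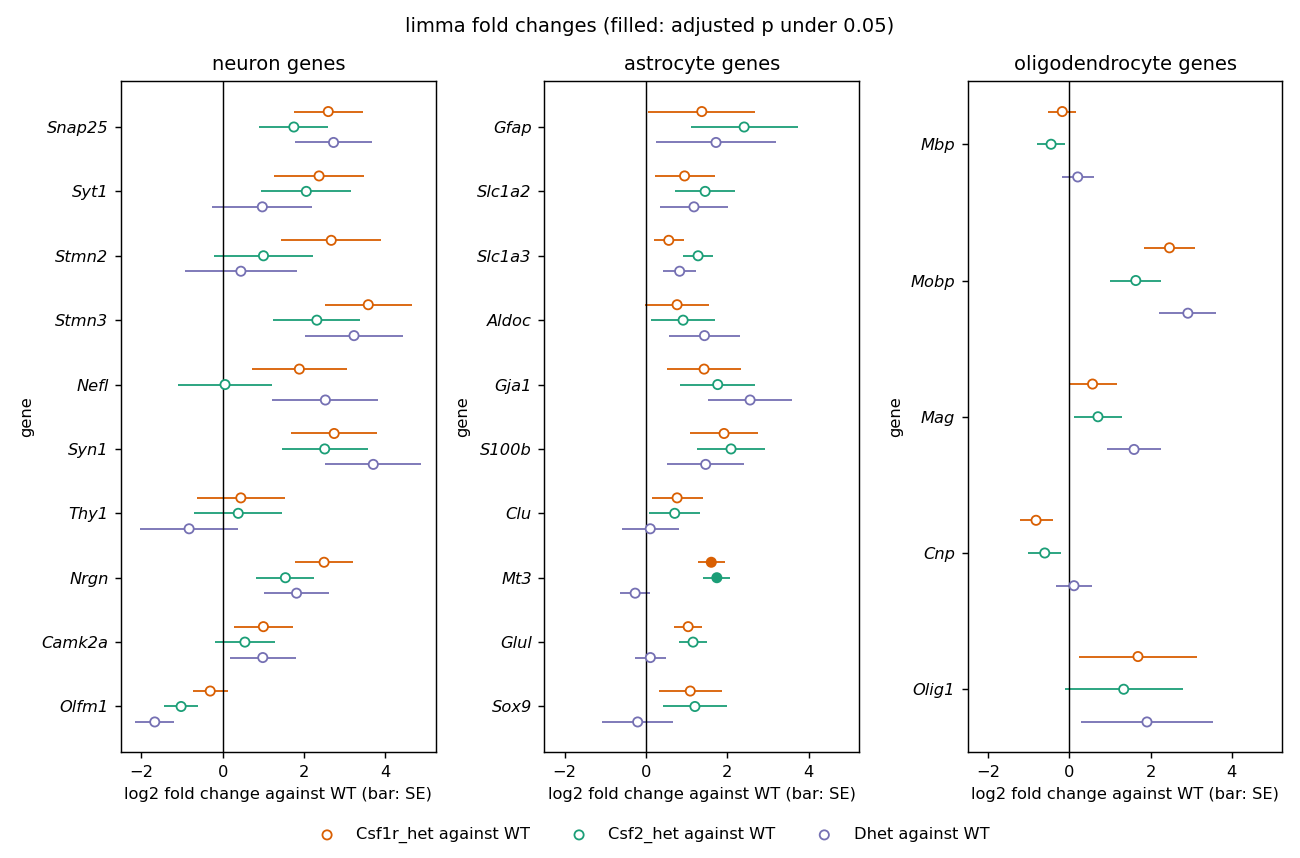
Limma log2 fold changes against WT with their SE for the neuron, astrocyte and oligodendrocyte genes, with Csf1r_het, Csf2_het and Dhet from top to bottom within each gene. Filled points passed an adjusted p of 0.05, which Mt3 did in Csf1r_het and Csf2_het.

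Mt3 (ENSMUSG00000031760.9, chromosome 8, 94152607 to 94154146, forward strand of mm10) encodes metallothionein-3, a brain form of the small cysteine-rich proteins that bind zinc and copper. It is made by astrocytes and some neurons. Mt3 had 6698, 6609 and 6391 normalized counts in Csf1r_het and 9016, 6056 and 6883 in Csf2_het. It had 1264 and 2540 in Dhet and 1583, 3108 and 2029 in WT. All 6 Csf1r_het and Csf2_het libraries thus lay above all 5 libraries of Dhet and WT, and the ranges of Dhet and WT overlapped. Group averages were 6566 ± 158 in Csf1r_het, 7319 ± 1527 in Csf2_het, 1902 ± 902 in Dhet and 2240 ± 784 in WT (SD).

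Mt3 rose 3.05-fold in Csf1r_het (log2 fold change 1.61, SE 0.33, limma adjusted p = 0.039) and 3.35-fold in Csf2_het (1.74, SE 0.33, limma adjusted p = 0.0123). In Dhet it had a log2 fold change of -0.27 (SE 0.37, limma adjusted p = 0.841). The interaction, which is the Dhet difference from WT minus the sum of the differences in Csf1r_het and Csf2_het, was -3.62 for Mt3 (SE 0.50, limma adjusted p = 0.00851). Mt3 was the 1 gene of 25 that passed for the interaction, where 1.85% of all genes tested passed. The interaction of Mt3 passed in all 21 alternative fits, with an adjusted p from 1.17e-07 to 0.0457. The Csf2_het call was lost without WT replicate 1 or Csf2_het replicate 1 (adjusted p up to 0.0761). The Csf1r_het call was lost in 12 of 22 alternatives: without WT replicate 1 or 3, without any 1 of the Csf1r_het or Csf2_het libraries, without the 24-month mice (limma adjusted p = 0.0808), with edgeR, with the replicate block or with only those groups in the fit.

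Mt1 and Mt2, metallothioneins induced by metals and glucocorticoids, lie beside Mt3 on chromosome 8 and were looked up after its values were seen. Mt1 had 4557, 9643 and 6389 normalized counts in Csf1r_het, 10098, 4536 and 10119 in Csf2_het, with 3619 and 2024 in Dhet and 1955, 8427 and 2716 in WT. The Mt1 interaction was -2.40 (SE 0.78, limma adjusted p = 0.134) and that of Mt2 -2.53 (SE 1.10, limma adjusted p = 0.248), so neither passed. WT replicate 2 held 8427 of Mt1, above 2 of the 3 Csf1r_het libraries. Mt3 shared none of its 31-base words with another gene of the GENCODE vM21 transcripts, while Mt2 shared 58.1%, nearly all of them with Gm45774.

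Genes of the choroid plexus and ependyma, epithelia that border the cerebrospinal fluid, also differed between the groups in their summed counts. Their 13 measured markers summed to 912805 to 1615370 normalized counts in Csf1r_het and 945401 to 1226440 in Csf2_het, against 290426 and 651651 in Dhet and 444489 to 701327 in WT. Each of the 6 libraries of Csf1r_het and Csf2_het lay above each of the others in this sum, though as a share of counts Csf1r_het replicate 2, at 1.40%, lay below the 1.58% to 1.72% of WT. The sum is mostly Ttr, a choroid plexus gene that made up 781961 of the 912805 in that library. As a mean log2 level the 13 did not separate, with 11.41 in Csf2_het replicate 3 and 11.45 in Dhet replicate 2, and Enpp2 was highest in Dhet replicate 2. None of the 13 was at 0 except 1 gene in Dhet replicate 1. Of the 13, Folr1 and Dynlrb2 passed with a rise in Csf1r_het (1.32% of all genes tested passed) and Dynlrb2 in Csf2_het (3.65%). For the interaction 3 passed (1.85%). By sign alone, 12 were positive in Csf1r_het (44.4% of all genes tested), 13 in Csf2_het (48.8%) and 8 in Dhet (50.9%). The part of these cells in the Mt3 result was not tested. Monocyte markers moved as well. With a negative fold change, 7 of 8 passed in Csf2_het (3.65% of all genes passed), 1 in Csf1r_het (1.32%) and 1 in Dhet (0.529%). By sign alone, 8 of 8 were negative in Csf2_het and in Csf1r_het, and 7 of 8 in Dhet. Of 12 microglia markers 3 passed in Csf2_het, with a rise, and 11 of 12 were positive in each heterozygous group.

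**Figure D4:**
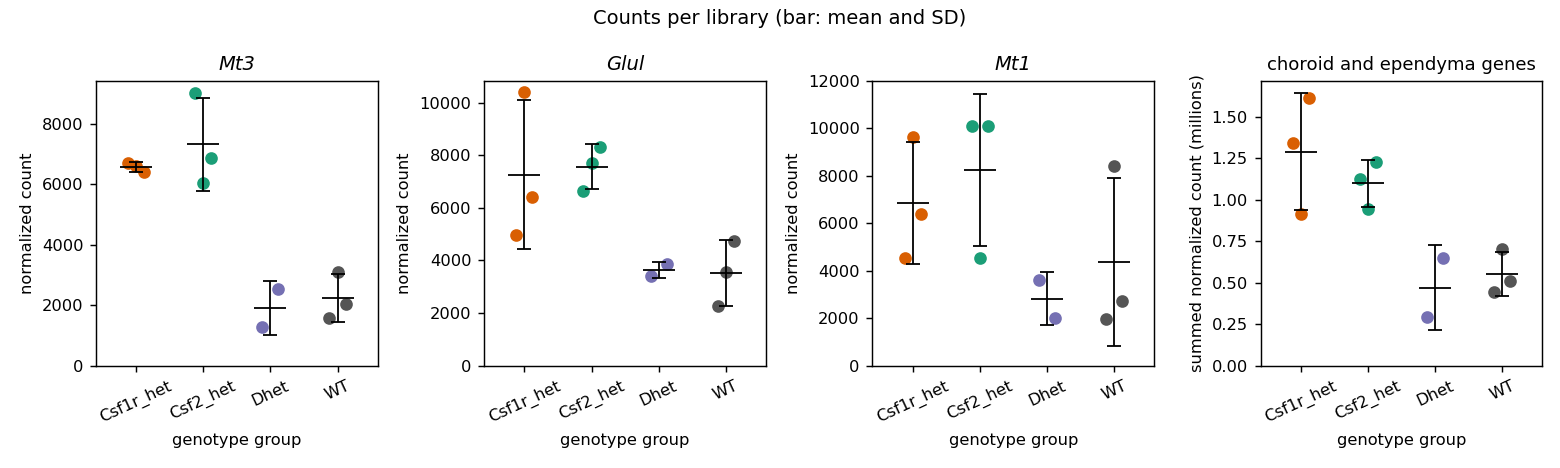
Normalized counts of Mt3, Glul and Mt1, and the summed counts of 13 choroid plexus and ependyma markers (axis scaled as marked), in each library (points) with group mean and SD (bars). For Mt3 and for the choroid plexus sum, the 6 Csf1r_het and Csf2_het libraries lie above the 5 Dhet and WT libraries.

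Glul (ENSMUSG00000026473.15, chromosome 1, 153899944 to 153909723) encodes glutamine synthetase, the astrocyte enzyme that takes up ammonia and glutamate, and it is also transcribed in macrophages. It had 4971, 10415 and 6416 normalized counts in Csf1r_het, 6635, 7713 and 8333 in Csf2_het, with 3419 and 3867 in Dhet and 2251, 3575 and 4755 in WT. The Csf1r_het and Csf2_het libraries lay above all Dhet and WT libraries. With limma none of the Glul differences passed: the log2 fold change was 1.04 in Csf1r_het (SE 0.34, limma adjusted p = 0.166), 1.16 in Csf2_het (SE 0.34, limma adjusted p = 0.0859) and 0.11 in Dhet. The Csf2_het difference passed with DESeq2 (adjusted p = 0.0311) and without WT replicate 3 (limma adjusted p = 0.0497). The Glul interaction of -2.09 (SE 0.51) had a limma adjusted p = 0.0601, and passed with TMM scaling, median centring, DESeq2, or without WT replicate 2 or 3. Glul shared 20.4% of its 31-base words with other genes, chiefly the pseudogene Glns-ps1, so some of its reads may be split with them.

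Among the glutamate transporters, Slc1a3 had 1385, 2354 and 1259 normalized counts in Csf1r_het, 3123, 2834 and 2082 in Csf2_het, with 1679 and 2213 in Dhet and 863, 841 and 1757 in WT. The Csf2_het libraries lay above the WT libraries, while in the other groups they overlapped. Its log2 fold change in Csf2_het was 1.28 (SE 0.36, limma adjusted p = 0.0746), which passed with median centring, with DESeq2 or without WT replicate 3. Slc1a2, the main transporter of forebrain astrocytes, ran from 1125 (Csf1r_het replicate 1) to 9891 (Csf2_het replicate 1) and its log2 fold change was 0.95 for Csf1r_het, 1.46 for Csf2_het and 1.18 for Dhet. None of these passed, although both Dhet libraries lay above all WT libraries. S100b, a calcium-binding protein of astrocytes and some oligodendrocytes, had 355, 1282 and 422 in Csf1r_het, 1563, 173 and 1015 in Csf2_het, with 318 and 559 in Dhet and 53.3, 301 and 216 in WT. Its log2 fold changes of 1.92, 2.09 and 1.47 did not pass with limma, and DESeq2 called the Csf2_het one (adjusted p = 0.04).

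The intermediate filament gene Gfap had the widest span of the 25 genes, from 5.82 normalized counts in WT replicate 2 to 1263 in Csf2_het replicate 1, a 217-fold span. Aldoc, an aldolase of astrocytes, had 2239, 5285 and 1933 in Csf1r_het, 9246, 1402 and 2399 in Csf2_het, with 3734 and 5494 in Dhet and 1784, 499 and 5210 in WT. The gap junction gene Gja1 spanned 15.5 to 630 and the transcription factor gene Sox9, which ependyma also uses, 99.1 to 1154. Clu, the secreted chaperone clusterin, which ependyma and choroid plexus make too, had 30593, 14638 and 17601 in Csf1r_het, 29631, 21040 and 11174 in Csf2_het, with 7258 and 21850 in Dhet and 16285, 4198 and 23394 in WT. All groups overlapped for Clu and Aldoc, and none of the fold changes of Gfap, Aldoc, Gja1, Sox9 or Clu passed. The lowest library for Gfap, Aldoc, Gja1, Clu and Slc1a3 was WT replicate 2 each time. That library also had the lowest Tmem119 and, at 15123 normalized counts, the highest Ccr2, a monocyte marker, and the part of this in the astrocyte result was not tested. All 10 astrocyte genes had a positive log2 fold change in both single heterozygotes and 8 of 10 in Dhet. The median log2 fold change was 1.07 for Csf1r_het, 1.37 for Csf2_het and 1.01 for Dhet, and without WT replicate 2 it was 0.44 for Csf1r_het, 0.97 for Csf2_het and 0.36 for Dhet. Without that library the log2 fold changes of Gfap and Aldoc turned negative in Csf1r_het, that of Clu in Csf2_het, and those of Gfap and Clu in Dhet. The medians of all 3 classes against WT kept their sign in each of the 22 alternative fits. Several of these fits, such as those that change the filter or leave out a library of another group, cannot move a median. The oligodendrocyte median in Csf2_het fell from 0.71 to 0.03 without Csf2_het replicate 1 and to 0.10 without WT replicate 2. In Dhet the oligodendrocyte median fell from 1.59 to 0.67 without WT replicate 2.

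Most neuron genes had positive log2 fold changes in each heterozygous group, and none passed in any of them. In Csf1r_het 9 of 10 had a positive log2 fold change with a median of 2.44, in Csf2_het 9 of 10 with a median of 1.28 and in Dhet 8 of 10 with a median of 1.40. At an unadjusted p under 0.05, in either direction, limma gave 5 of 10 for Csf1r_het (16.2% of all genes tested), 4 for Csf2_het (17.3%) and 5 for Dhet (10.1%). At an adjusted p under 0.05 edgeR called 0 in each, and DESeq2 called Stmn3 and Nrgn in Csf1r_het, 0 in Csf2_het and Olfm1 in Dhet. Over all genes DESeq2 called 825, 1232 and 357 in these groups, against 174, 482 and 70 with limma.

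Snap25, a SNARE protein of synaptic vesicle fusion, had 1989, 485 and 465 normalized counts in Csf1r_het, 1042, 233 and 316 in Csf2_het, with 710 and 990 in Dhet and 79.0, 49.5 and 499 in WT. WT replicate 3, at 499, lay above replicates 2 and 3 of Csf1r_het and of Csf2_het, so those ranges overlapped with WT, while both Dhet libraries lay above it. The log2 fold change was 2.60 in Csf1r_het (SE 0.85, limma adjusted p = 0.164), and it passed without WT replicate 3 (limma adjusted p = 0.045). Stmn3, a microtubule regulator of the stathmin family, had 1112, 418 and 74.8 in Csf1r_het, 248, 37.8 and 262 in Csf2_het, with 329 and 200 in Dhet and 18, 12.6 and 78.0 in WT. Its Dhet libraries lay above all WT libraries, while Csf1r_het replicate 3 and Csf2_het replicate 2 lay within the WT range, and its log2 fold changes of 3.58, 2.32 and 3.23 did not pass with limma.

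Nrgn, a calmodulin-binding protein of forebrain dendrites, had 500, 802 and 170 normalized counts in Csf1r_het, 439, 126 and 169 in Csf2_het, with 196 and 332 in Dhet and 39.2, 104 and 89.5 in WT. It was the 1 neuron gene with all libraries of every heterozygous group above all WT libraries. Its log2 fold changes were 2.50 in Csf1r_het (SE 0.71, limma adjusted p = 0.112), 1.55 in Csf2_het and 1.82 in Dhet, and did not pass with limma. Syn1, a phosphoprotein of synaptic vesicles, had 104, 66.7 and 32.6 in Csf1r_het, 145, 18.7 and 50.4 in Csf2_het, with 104 and 138 in Dhet and 23.8, 8.74 and 2.29 in WT. Its log2 fold changes of 2.75, 2.51 and 3.71 did not pass either.

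Nefl, the light neurofilament chain, had 87.4 to 293 in Csf1r_het, 5.27 to 386 in Csf2_het, 313 and 247 in Dhet and 43.0 to 52.8 in WT. All its Csf1r_het and Dhet libraries lay above all WT libraries, and its Csf2_het libraries lay on both sides. It shares 32.2% of its 31-base words with Nefm, so its reads are uncertain. Syt1, a calcium sensor of vesicle release, and Stmn2, another stathmin, peaked in Csf1r_het replicate 1 at 442 and 415. Camk2a, a kinase of the postsynapse, ran from 58.4 to 431 with both Dhet libraries above all WT libraries, and Thy1, a surface protein of neurons and of T cells, peaked in WT replicate 2 at 491. Olfm1, a secreted olfactomedin, had negative log2 fold changes in all 3 groups. It had 1477, 809 and 876 in Csf1r_het, 1060, 451 and 493 in Csf2_het, with 409 and 379 in Dhet and 1909, 1199 and 861 in WT. Both Dhet libraries lay below all WT libraries, with a log2 fold change of -1.67 (SE 0.48, limma adjusted p = 0.221) that passed with DESeq2 alone.

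**Figure D5:**
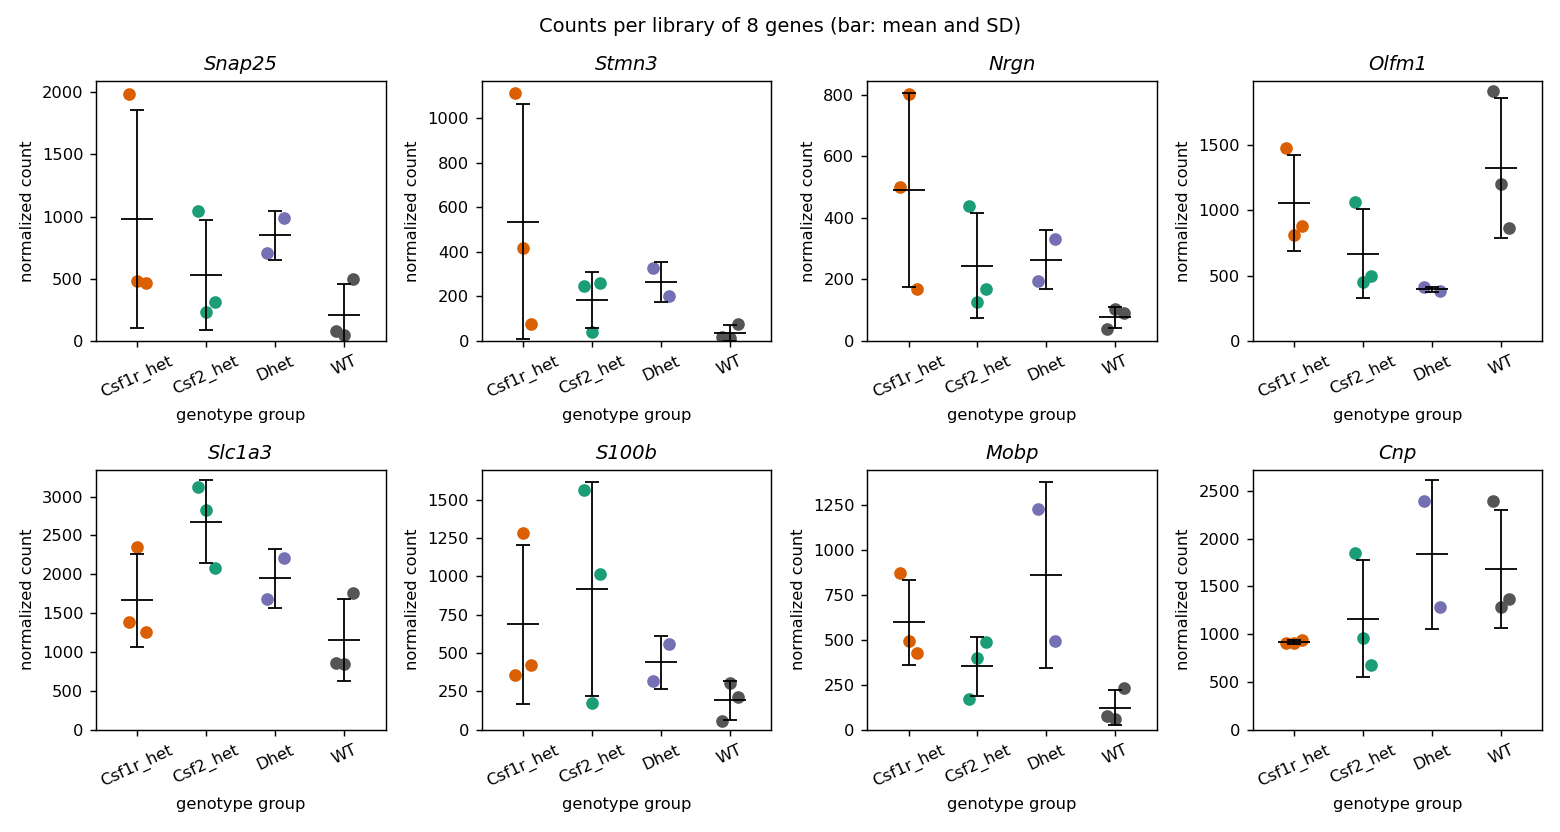
Normalized counts of 8 genes in each library (points) with group mean and SD (bars), for Csf1r_het, Csf2_het, Dhet and WT: the neuron genes Snap25, Stmn3, Nrgn and Olfm1, the astrocyte genes Slc1a3 and S100b and the oligodendrocyte genes Mobp and Cnp. Olfm1 is lowest in Dhet, at 409 and 379, and Mobp averages lowest in WT.

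The 5 oligodendrocyte genes did not move as 1 block. Mobp, a small basic protein of compact myelin, had 867, 495 and 426 normalized counts in Csf1r_het, 168, 398 and 486 in Csf2_het, with 1225 and 493 in Dhet and 77.1, 59.2 and 232 in WT. Its Csf1r_het and Dhet libraries lay above all WT libraries, with log2 fold changes of 2.46 (SE 0.63, limma adjusted p = 0.0787) and 2.92 (SE 0.70, limma adjusted p = 0.121). Both passed with DESeq2 or without WT replicate 3, and in no other alternative. Mag, an adhesion protein of the inner myelin wrap, had 661 and 221 in Dhet and 94.1 to 157 in WT, and its log2 fold change in Dhet did not pass (1.59, SE 0.66).

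Mbp, the major basic protein of myelin, whose golli transcripts are also made in immune cells, had 4636, 2596 and 2309 in Csf1r_het, 3549, 1847 and 2390 in Csf2_het, with 5072 and 3062 in Dhet and 3749, 3474 and 3056 in WT. It spanned 2.75-fold over the 11 libraries, the least of the 25 genes, and its log2 fold changes were -0.17, -0.45 and 0.21. Cnp, a nucleotide phosphodiesterase of myelin, had 907, 904 and 940 in Csf1r_het, 1852, 956 and 680 in Csf2_het, with 2390 and 1284 in Dhet and 2395, 1288 and 1371 in WT. All 3 Csf1r_het libraries lay below all WT libraries, and its log2 fold change of -0.82 (SE 0.41, limma adjusted p = 0.339) did not pass. Olig1, a transcription factor of the oligodendrocyte lineage, had 66.0, 578 and 46.3 in Csf1r_het, 588, 37.3 and 38.2 in Csf2_het, with 64.6 and 310 in Dhet and 34.7, 5.82 and 224 in WT. Limma called 0 of the 5 genes in each group against WT, with 1 of 5 at an unadjusted p under 0.05 for Csf1r_het and for Csf2_het, near the 16.2% and 17.3% of all genes, and 2 of 5 for Dhet (10.1%). At an adjusted p under 0.05 edgeR called 0, and DESeq2 called Mobp in Csf1r_het and Dhet. Over all genes DESeq2 called 825 in Csf1r_het and 357 in Dhet, and it gave 1 of the 5 genes no adjusted p.

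For the interaction, the median over the neuron genes was -1.64, over the astrocyte genes -1.72 and over the oligodendrocyte genes 0.32, against 0.15 over all genes tested. It was negative for 9 of 10 neuron genes, 10 of 10 astrocyte genes and 2 of 5 oligodendrocyte genes. Apart from Mt3 none passed with limma, which gave 0 neuron genes, 2 astrocyte genes (Mt3 and Glul) and 1 oligodendrocyte gene (Cnp, at 1.54) at an unadjusted p under 0.05, or 3 of 25, where 18% of all genes tested did. At an adjusted p under 0.05 edgeR called Mt3, and DESeq2 called Mt3 and Glul. Over all genes DESeq2 called 986, against 244 with limma.

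Likeness between genes was described by the Spearman rho of their levels over the 11 libraries, which share depth and size factors. Within the neuron class the median rho of 45 pairs was 0.51 and within the astrocyte class 0.50 (44 of 45 pairs positive), but within the oligodendrocyte class it was 0.13 over 10 pairs. Between neuron and astrocyte genes the median was 0.30 over 100 pairs. The pair with the highest rho of all was Olig1 with the astrocyte gene Aldoc (0.94), and next came Gja1 with Aldoc (0.93). Mt3 was closest to Glul (0.79) and S100b (0.71), and the lowest rho of all pairs was that of Cnp with Glul (-0.77).

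Further markers of the same cells were counted from longer lists. Of 38 other neuron genes 27 had a row, and their median log2 fold changes were 1.25 in Csf1r_het, 1.0 in Csf2_het and 1.53 in Dhet. Of 25 other astrocyte genes 23 had a row and 0 passed, with medians of 0.87, 1.10 and 1.23. In each group 1 of the 23 had a limma unadjusted p under 0.05. Of all genes tested, 16.2% did in Csf1r_het, 17.3% in Csf2_het and 10.1% in Dhet. Of 25 other oligodendrocyte genes 11 had a row, with median log2 fold changes of 0.84 in Csf1r_het, 0.23 in Csf2_het and 0.71 in Dhet, and 3 of the 11 were negative in each single heterozygote. Cryab, a small heat shock protein that other cells make too, rose in Csf1r_het (log2 fold change 1.63, SE 0.35, limma adjusted p = 0.0452) and Csf2_het (1.57, SE 0.35, limma adjusted p = 0.0285), and its interaction of -2.96 passed (SE 0.53, limma adjusted p = 0.0191). Of 9 markers of oligodendrocyte precursors 2 had a row, and Vcan, a proteoglycan that monocytes also make, fell in Csf2_het (limma adjusted p = 0.0103).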

How the data were processed

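Tmem119-positive cells of 11 libraries were measured by RNA-seq. Per the submitters' processing notes, kallisto 0.43.1, DESeq2 and mm10 were used; the DESeq2 version and transcript index are not stated there. Each deposited signal value is a read count per gene after the authors' size-factor normalization, and 100% of values came out as whole reads within 0.02 reads once the step of 1 read was taken out. Because the deposited values are normalized, limma 3.58.1 (R 4.3.3) on log2(value + 1) was the main test, which shrinks the fold change of genes with low values. One fit with a trended prior covered all 4 groups (7 residual and 5.901 prior degrees of freedom) and 13223 genes with a mean of at least 10; 1516 genes were left out. Contrasts were each heterozygous group against WT and the interaction, with Benjamini-Hochberg adjustment and a threshold of 0.05.

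EdgeR 4.0.16 on the recovered reads tested 13703 genes and called 100 in Csf1r_het and 26 in Dhet; DESeq2 1.42.0 was run on the same reads. Alternatives also changed the pseudocount, filter, scaling, replicate block and groups fitted, and left out each library in turn. A fit of only the mice of 20 and 21 months was chosen after seeing the data. Where leaving out a library left Dhet with 1, that library was assumed to vary like the other groups. The limma script was checked on simulated counts that gave every gene the same dispersion. That check does not show how genes with a wider spread between libraries are called. Exon lengths and shared 31-base words came from GENCODE vM21 on GRCm38, and promoters from RefSeq. The genes, lists and tests were chosen with earlier results of these data known. By rule, values for every library were given for genes that passed and for the 4 genes of each class with the highest mean level per kilobase, with Syn1 added for its sequence and other genes given by range. Slc1a3, S100b and Mt1 were added in full, and Mt2 in part, after their values were seen. Results of some genes of the longer marker lists are not reported here.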

Additional observations from a re-analysis of the deposited data

Results flagged for a closer look

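The interaction of the Csf1r and Csf2 copy losses on Mt3 was -3.62 on the log2 scale (SE 0.50, limma adjusted p = 0.00851). It was picked out because the difference made by losing a Csf1r copy differed, by the interaction test itself, between mice with 1 and with 2 Csf2 copies. All 6 Csf1r_het and Csf2_het libraries had more Mt3 than both Dhet and all 3 WT libraries.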

How the results depend on the processing

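Counts below are of the 25 genes, then of all genes tested. In Csf1r_het the counts were 1 and 174 with the reported limma fit. EdgeR called 0 and 100, DESeq2 4 and 825, a fit of only the groups compared 0 and 0, and the mice of 20 and 21 months alone 0 and 26. In Csf2_het the counts were 1 and 482. DESeq2 called 4 and 1232, and median centring called 2 of the 25. In Dhet they were 0 and 70. EdgeR called 26 genes, DESeq2 2 and 357, only the groups compared 0 genes, and the mice of 20 and 21 months alone 310 genes. For the interaction they were 1 and 244. TMM scaling called 2 of the 25, median centring 2, DESeq2 2 and 986, and the mice of 20 and 21 months alone 392 genes. A fit of only the groups compared gives no interaction.

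Leaving out each library in turn gave 0 to 2 and 0 to 442 in Csf1r_het, 0 to 3 and 172 to 675 in Csf2_het, 0 to 1 and 2 to 174 in Dhet, and 1 to 2 and 47 to 911 for the interaction. With the replicate block, Csf1r_het had 0 and 28 calls, Csf2_het 256 genes and the interaction 14 genes. Same-numbered libraries did not deviate together from their group means (15 pairs, r from -0.214 to 0.062). The 2 Dhet libraries mirror each other in this measure and the groups are small, so it cannot decide whether the numbers mark a batch. No called value changed direction. Of the 100 fold changes of the 25 genes, 27 that were not called changed sign in at least 1 alternative, 10 of them in Dhet, among them Mt3 without Dhet replicate 1 and Glul without WT replicate 1. The cause of each change was not tested. Genes with few reads, such as Syn1 with 2 reads in WT replicate 3, are limited by depth.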

Other observations

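Genes outside the 25 whose levels over the 11 libraries most resembled each class were ranked by Spearman rho against the class mean, over 11905 genes, as a description with no test. For the neuron mean they were Nap1l5 (0.95), Myt1l (0.90) and Syt5 (0.89). For the astrocyte mean they were Cspg5 (0.99), Paqr6 (0.96) and Paqr8 (0.95). For the oligodendrocyte mean they were Prpf39 (0.98), Ctps (0.95) and Sfi1 (0.95). For Mt3 itself they were Mia (0.94), Cox7a1 (0.93) and Endog (0.93). Among the oligodendrocyte genes themselves the median rho was 0.13, and whether their mean follows oligodendrocyte content was not tested.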
